A study of Mus musculus with 31 samples.

Results

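Restored sites are stretches of the mouse X chromosome that the authors classed as XiRestored, by their name sites regained on the inactive X (Xi), in cells that had lost Xist. They were taken as every interval of 2 deposited lists, 189 of binding of BRG1 and 37 of accessible chromatin, which gives 226 of the 1556 X-linked sites that the authors classed (14.5%). The other classes were Monoallelic, by their name sites of the active X alone, with 887 BRG1 and 356 accessible sites (1243 together), and Biallelic, present on both X chromosomes, with 60 and 27 (87 together). The lists hold positions on mm10 and no score, and the call rule for the classes is not given in the sources at hand here. The members were chosen by the authors' calls, which by the class names rest on allele-resolved BRG1 and accessibility signal, so no strength of a site can be stated, and class membership is used only as a description.

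The cells were female mouse dermal fibroblasts of a CAST/Ei x 129/Sv/Jae hybrid, whose differing bases let reads be assigned to a parental X. The series compares wild-type (WT) cells with XaWT XiΔXist cells, in which Xist was removed from the Xi after X inactivation was complete (line 1 here), and with XaWT XiΔXist #2 cells, another such line (line 2 here). The deposited BRG1 lists belong to native chromatin immunoprecipitation (ChIP-seq) of WT and line 1, and the accessibility lists to ATAC-seq, which cuts open chromatin with a transposase, of WT, line 1 and WT embryonic fibroblasts of the same hybrid. No list describes line 2, and each deletion is represented by a single line. RNA was sequenced in 2 libraries of each of WT, line 1 and line 2; no label says that the libraries of a group came from separate cultures, so p-values measure only the spread between these libraries.

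In female mammals 1 X chromosome per cell is silenced by Xist, a long RNA made from the future inactive X that coats it and recruits repressive machinery; once set, silencing is kept through cell division by several layers of chromatin marks. BRG1, encoded by Smarca4, is the ATPase of SWI/SNF (BAF) complexes, which slide and evict nucleosomes at enhancers and promoters and so make DNA accessible. A minority of X-linked genes escape silencing and are transcribed from both X chromosomes, and on the Xi the chromosome folds into large domains that meet at a hinge containing the macrosatellite Dxz4.

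Few restored sites lay at promoters, and 7 of them met the promoter window of an X-linked gene (250 bases before a RefSeq start to 50 after it, 1223 windows on the X). The 226 restored sites thus met 7 such windows, the 87 Biallelic sites 13 and the 1243 Monoallelic sites 184. Sequences are from RefSeq on GRCm38.p6, whose primary coordinates are those of mm10. The 4 printed here are the 250 bases before the start of Pgk1, Atp7a and Pbdc1, which an accessible restored site met, and of Pls3, which a BRG1 restored site met. Each is given 5′ to 3′ on the gene's strand, and capitals mark the bases inside the restored site.
Pgk1, chrX:106186850-106187099, plus strand: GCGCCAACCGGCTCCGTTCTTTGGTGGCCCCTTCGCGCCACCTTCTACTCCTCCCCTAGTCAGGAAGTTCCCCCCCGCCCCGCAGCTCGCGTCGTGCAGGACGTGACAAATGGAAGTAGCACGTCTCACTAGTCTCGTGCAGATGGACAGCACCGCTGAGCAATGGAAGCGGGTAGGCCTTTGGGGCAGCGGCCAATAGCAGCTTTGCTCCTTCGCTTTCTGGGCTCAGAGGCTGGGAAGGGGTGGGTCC
Atp7a, chrX:106026974-106027223, plus strand: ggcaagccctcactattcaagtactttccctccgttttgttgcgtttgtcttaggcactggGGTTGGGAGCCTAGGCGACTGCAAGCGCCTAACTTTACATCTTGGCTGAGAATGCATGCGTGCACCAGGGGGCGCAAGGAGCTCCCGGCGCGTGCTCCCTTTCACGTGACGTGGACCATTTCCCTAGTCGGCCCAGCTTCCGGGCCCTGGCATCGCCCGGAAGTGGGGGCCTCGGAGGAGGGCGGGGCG
Pbdc1, chrX:105079506-105079755, plus strand: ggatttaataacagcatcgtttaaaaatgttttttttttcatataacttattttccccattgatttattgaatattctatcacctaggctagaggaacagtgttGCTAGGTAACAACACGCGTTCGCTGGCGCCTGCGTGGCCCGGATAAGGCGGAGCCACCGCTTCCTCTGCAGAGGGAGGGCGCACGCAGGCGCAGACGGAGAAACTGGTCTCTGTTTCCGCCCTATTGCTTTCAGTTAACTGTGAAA
Pls3, chrX:75843022-75843271, minus strand: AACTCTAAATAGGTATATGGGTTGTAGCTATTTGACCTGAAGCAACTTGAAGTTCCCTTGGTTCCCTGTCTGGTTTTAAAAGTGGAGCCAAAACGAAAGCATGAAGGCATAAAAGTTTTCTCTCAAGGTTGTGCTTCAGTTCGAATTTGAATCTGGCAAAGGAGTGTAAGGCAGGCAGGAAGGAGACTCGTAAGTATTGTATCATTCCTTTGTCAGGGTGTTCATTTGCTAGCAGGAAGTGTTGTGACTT

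The first 3 are rich in CpG, the dinucleotide whose methylation marks silenced promoters of the Xi. Over the 300 bases of the window Pgk1 held 24 CpG at 66.7% G and C, Atp7a 22 at 63.3% and Pbdc1 20 at 49.3%, against medians of 7 CpG and 51% over the X windows. The windows of Vbp1 (12 CpG) and Pin4 (11 CpG), which also met an accessible restored site, lay nearer the median. Both windows met only by BRG1 were poor in CpG, with 3 in Pls3, at a start within the gene, and 0 in Ikbkg, also at an inner start. Motif letters were searched on both strands of each window. The AP-1 core TGANTCA was in the Ikbkg window and in 7.85% of X windows. The TEAD core GGAATG was in the Vbp1 and Pls3 windows and in 15.6% of X windows. For the CTCF core, only letter strings that allow no mismatch at their fixed positions were searched. An exact match to them was in 0 of the 7 windows and in 1.88% of X windows. The Atp7a sequence holds a near match inside its restored site, which such a search leaves out. The 0 therefore does not show that CTCF motifs are absent from these windows.

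Among the clusters without a protein-coding start, the one with the most sites (25) held a microRNA pair, Mir221 and Mir222, small RNAs that repress cell cycle inhibitors among other targets. Their mature forms lay 1.21 to 1.8 kb from a restored site, on the minus strand. The capitals mark the seed, bases 2 to 8, which the 3p forms of both share (GCUACAU).
mmu-miR-221-3p, chrX:19146307-19146329: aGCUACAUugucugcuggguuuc
mmu-miR-222-3p, chrX:19146901-19146923: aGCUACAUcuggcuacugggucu

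Restored sites were short and packed into few places. They were 117 to 4639 bases wide, with a median of 705 (843 for BRG1, 264 for accessibility), and together covered 217 kb. Among the 225 gaps between neighbours the quartiles were 0.194, 4.35 and 37.1 kb. Of the gaps, 87 (38.7%) were under 1 kb, so neighbouring intervals are in part pieces of the same locus: joined at 1 kb, the 226 sites made 139 loci. At the other end, 14 gaps exceeded 1 Mb and 10 exceeded 5 Mb.

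A cluster was defined as at least 3 restored sites with no gap over 100 kb. By this rule 18 clusters held 207 of the 226 sites (91.6%) in 2.72 Mb of the chromosome. The other 19 sites were 13 single sites and 3 pairs. The same rule put 88.7% of Monoallelic sites into 110 clusters and 67.8% of Biallelic sites into 6. The clusters spanned 2 to 361 kb (median 144 kb) and held 3 to 30 sites (median 10.5). The 5 largest held 110 sites, which is 48.7% of all, and 13 of the 18 held sites of both assays.

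**Figure D1:**
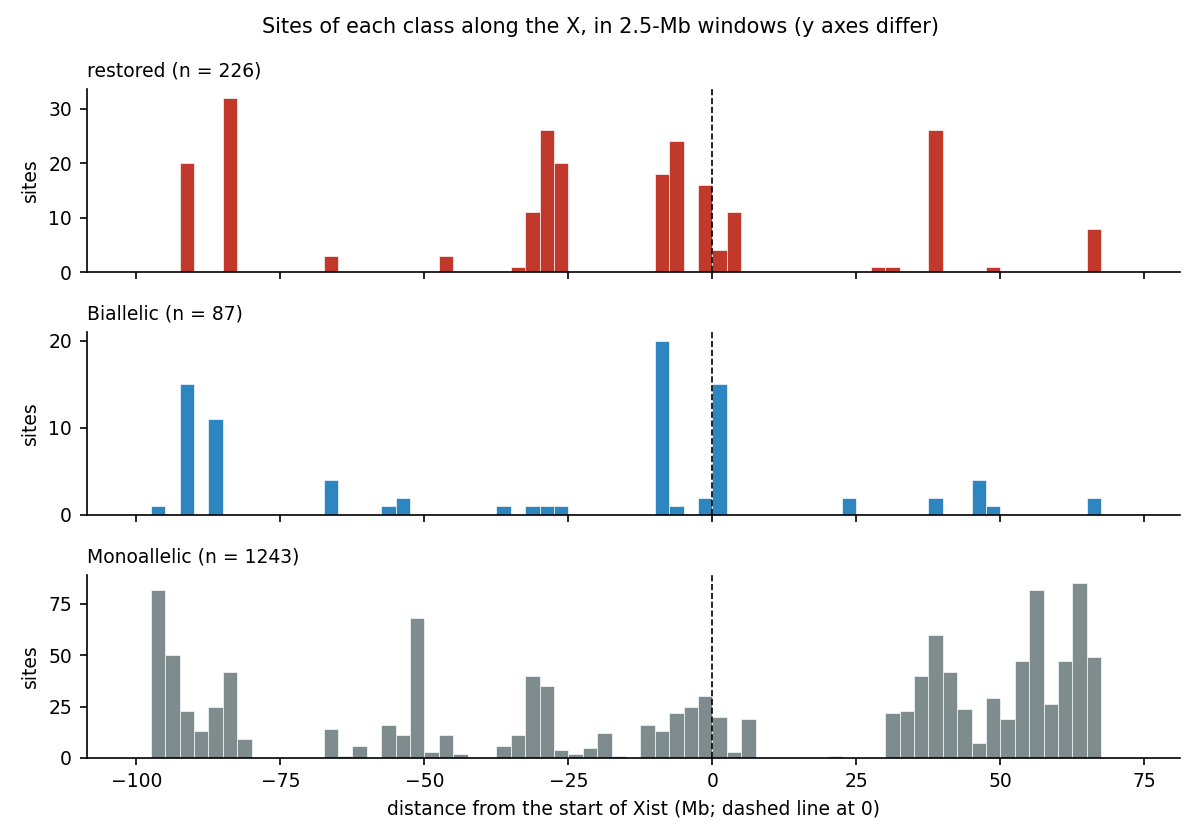
Sites of each class per 2.5-Mb window, against the distance from the start of Xist in Mb (dashed line at 0, negative towards the centromere); bars count sites and the y axes differ. Restored sites occupy 18 of the 51 windows that hold any site, Biallelic sites 19 and Monoallelic sites 49.

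The largest cluster, with 30 sites at chrX:95901962-96137885, ran from the end of Zc3h12b over Las1l, a factor of ribosome biogenesis, into Msn, which encodes moesin, the linker of actin to the cell membrane. It held 24 BRG1 and 6 accessible sites, and 15 of its sites (12 BRG1, 3 accessible) lay inside Msn, more than in any other gene. No Monoallelic or Biallelic site lay inside Msn. The next, with 25 sites at chrX:19026966-19206518, lay wholly between genes, and Mir221 and Mir222 were the only starts in it. It included the widest restored site, a BRG1 interval of 4639 bases at chrX:19152865-19157503, and no site of another class; the nearest Monoallelic site was 31.1 kb away and the nearest Biallelic site 828 kb. A smaller cluster of 6 sites lay just before it, at chrX:18841313-18883761, with no gene start inside.

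The third cluster, with 20 sites at chrX:73441771-73651778, covered Atp2b3, a plasma membrane calcium pump, Bgn, the matrix proteoglycan biglycan, Haus7, a spindle protein, and Dusp9, a MAP kinase phosphatase. It held 3 Monoallelic sites and 1 Biallelic site besides. The fourth, with 18 sites at chrX:12773322-13134466, was the longest. Its sites lay mostly outside transcripts (15 of 18) around AA414768 and reached into Usp9x, a deubiquitinase. In the fifth, 17 sites at chrX:77409748-77734907, 9 lay inside Tbl1x, a subunit of a corepressor complex.

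Of the clusters of 10 to 14 sites, 2 lay wholly within genes. All 14 sites at chrX:75814408-75874378 were inside or at a start of Pls3, the actin-bundling plastin, and all 12 at chrX:141293124-141535288 inside Col4a5 or Col4a6, neighbouring basement membrane collagens transcribed away from each other. The 13 sites at chrX:142336863-142521127 were near Acsl4, a fatty acid CoA ligase, with 3 inside it. The 11 at chrX:106018388-106200824 covered the start of Atp7a, a copper pump, and the glycolytic gene Pgk1, and 7 of them were inside transcripts. The 10 at chrX:103149503-103371336 began next to the X inactivation centre, around Nap1l2, Cdx4 and Chic1, with their middle 0.22 Mb from the start of Xist. Among the smaller clusters, all 8 sites at chrX:169795377-169870027 lay inside Mid1, a ubiquitin ligase gene, and 3 sites at chrX:37495203-37599856 lay in the Rhox homeobox cluster, a multi-copy array where reads may not map to a single copy.

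**Figure D2:**
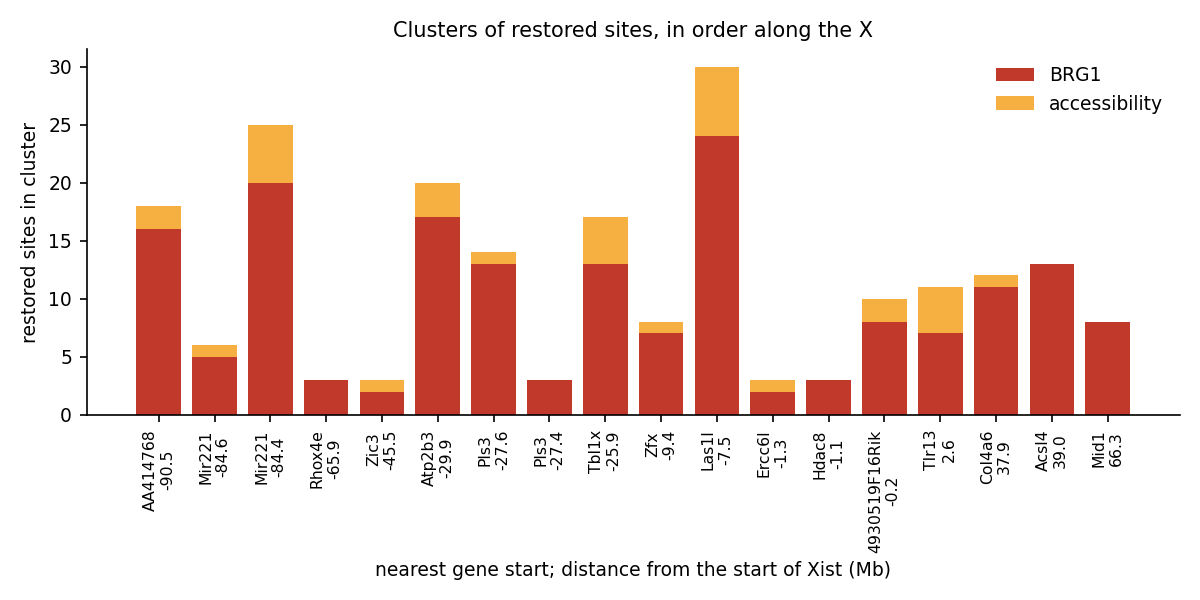
Number of restored sites in each of the 18 clusters, in order along the X, split into BRG1 (red) and accessibility (orange); labels give the gene start nearest to the cluster's midpoint and the midpoint's distance from the start of Xist in Mb. The cluster at Las1l and Msn has 30 sites and that at Mir221 25, and 5 clusters have no accessible site.

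Between the clusters lay stretches with no restored site. The longest, 27.2 Mb from 106.2 to 133.4 Mb, also held few other sites, 22 Monoallelic and 2 Biallelic, over 59 gene symbols. Others were well supplied with sites of the active X. The 17.5 Mb from 152.3 to 169.8 Mb held 366 Monoallelic sites and 1 Biallelic site, and the 20.3 Mb from 37.6 to 57.9 Mb held 123 Monoallelic and 5 Biallelic sites. Restored sites lay more often on the centromere side of Xist than Monoallelic sites did, at 77% against 48.1%, with Biallelic sites at 70.1%. These shares count sites, which are not independent within a cluster, and no test was made.

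Around Xist itself, at chrX:103460373-103483233, 12 restored sites (5.31%) lay within 500 kb of the gene, beside 14 Biallelic sites (16.1%) and 1 Monoallelic site (0.0805%). The nearest restored site was 31.8 kb from Xist. It and another single site lay near Jpx and inside Ftx, noncoding genes of the X inactivation centre that escape silencing. Around 4933407K13Rik, the transcript of Dxz4, 37 restored sites (16.4%) lay within 2 Mb, the nearest 49.7 kb away, beside 1 Biallelic site (1.15%) and 32 Monoallelic sites (2.57%). Those 37 include the Pls3 cluster. No restored site lay within 2 Mb of Firre, an X-linked gene of a long noncoding RNA; the nearest was 7299 kb away.

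Most restored sites lay away from gene starts. By its midpoint each site was placed within 1 kb of a start, otherwise inside a transcript, otherwise between genes. Of the 226 sites 10 were at a start (4.42%), 95 inside a transcript (42%) and 121 between genes (53.5%), with a median of 23.8 kb to the nearest start. Exons and introns were not analysed here. The classes differed most in accessibility: 13.5% of accessible restored sites were at a start (5 of 37), against 40.7% of Biallelic (11 of 27) and 50% of Monoallelic accessible sites (178 of 356). BRG1 sites were rarely at starts in any class, with 2.65% of restored, 3.33% of Biallelic and 6.31% of Monoallelic sites. These are descriptions of the lists, whose members share loci.

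**Figure D3:**
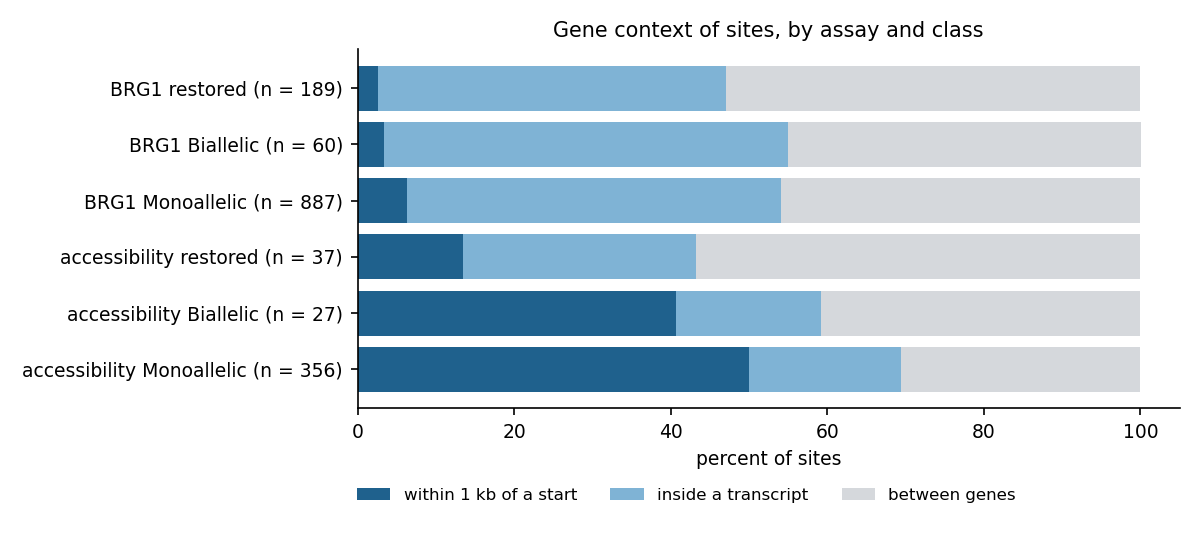
Percent of sites within 1 kb of a start (dark blue), inside a transcript (light blue) and between genes (grey), by assay and class. Accessible restored sites have 13.5% at starts, beside 40.7% and 50% in the other accessible classes.

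The 5 accessible sites at starts belonged to Vbp1, a subunit of the prefoldin chaperone, Pin4, a prolyl isomerase, Pbdc1, Atp7a and Pgk1. The 5 BRG1 sites at starts were 2 at Pls3 and 1 each at Ikbkg, the regulatory subunit of the NF-kappa-B kinase, Pbdc1 and 5730405O15Rik. In all, 35 genes had a restored site inside the transcript, and 5 of them held 54 sites: Msn (15), Pls3 (14), Tbl1x (9), Col4a6 (8) and Mid1 (8). Msn and Pls3 had no site of another class inside, whereas Mid1, of 306 kb, also held 6 Monoallelic sites and 1 Biallelic site.

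The BRG1 and accessibility lists, which were deposited as separate classifications, met at many of the same places. Of the 37 accessible restored sites 22 (59.5%) shared at least 1 base with a BRG1 restored site, and 25 of 189 BRG1 sites (13.2%) shared a base with an accessible one. None of the 37 shared a base with a BRG1 site of another class. Of the 356 Monoallelic accessible sites 76 (21.3%) overlapped a Monoallelic BRG1 site and none a restored one. Of the 27 Biallelic accessible sites 8 (29.6%) overlapped a Biallelic BRG1 site and 2 (7.41%) a restored one. The shared stretches were short, with a median of 56 bases, and only 4 accessible and 3 BRG1 sites remained when 50% of the shorter interval had to be shared. The accessible sites in many cases lay next to or between BRG1 intervals. A BRG1 restored interval lay within 1 kb on both sides of 10 of them, on 1 side of 13 and on neither side of 10, and the remaining 4 lay inside a BRG1 interval. Those 4 were 2 sites inside Tbl1x, 1 inside Atp7a and 1 in the cluster at Mir221 and Mir222.

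Restored sites were next to each other more often than their share of all sites, as were sites of the other classes. The nearest classified site of either assay was another restored site for 191 of 226 (84.5%), which make up 14.5% of all sites. This was 185 (81.9%) when neighbours within 10 kb were passed over. The nearest site was of the same class for 63.2% of Biallelic sites (5.59% of all sites) and 97.7% of Monoallelic sites (79.9%). Among accessible sites alone, 51.4% of restored sites had a restored site nearest, and 35.1% when neighbours within 10 kb were passed over. Restored sites make up 8.81% of accessible sites. Of the restored sites 2 overlapped a Biallelic site, inside Atp2b3 and Tbl1x, and 0 overlapped a Monoallelic one. Both overlaps were of a BRG1 restored site with an accessible Biallelic site. Within an assay no restored site overlapped a site of another class. That follows if each site was given a single class, so it says nothing of place. The 18 cluster spans cover only 2.72 Mb, so few sites of any class would lie in them if sites were spread evenly. They held 10 of the 1243 Monoallelic sites (0.805%) and 12 of the 87 Biallelic sites (13.8%). Of the 18 spans 12 held no Monoallelic site.

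The median distance to the nearest Monoallelic site was 81.4 kb (quartiles 32.5 and 172 kb, largest 0.893 Mb), and 58.4% of restored sites had one within 100 kb. Biallelic sites had a like distance to Monoallelic sites, with a median of 77.6 kb. To the nearest Biallelic site the median was 140 kb (quartiles 54.1 and 948 kb, largest 7.32 Mb), and 40.3% had one within 100 kb. Monoallelic sites were farther from Biallelic sites, with a median of 1932 kb and 4.18% within 100 kb. Since Biallelic sites are fewer, distances to the 2 classes are not compared with each other. Within an assay, BRG1 restored sites were 210 kb from a Monoallelic and 879 kb from a Biallelic BRG1 site in the median, and accessible restored sites 93.9 and 276 kb from accessible ones.

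**Figure D4:**
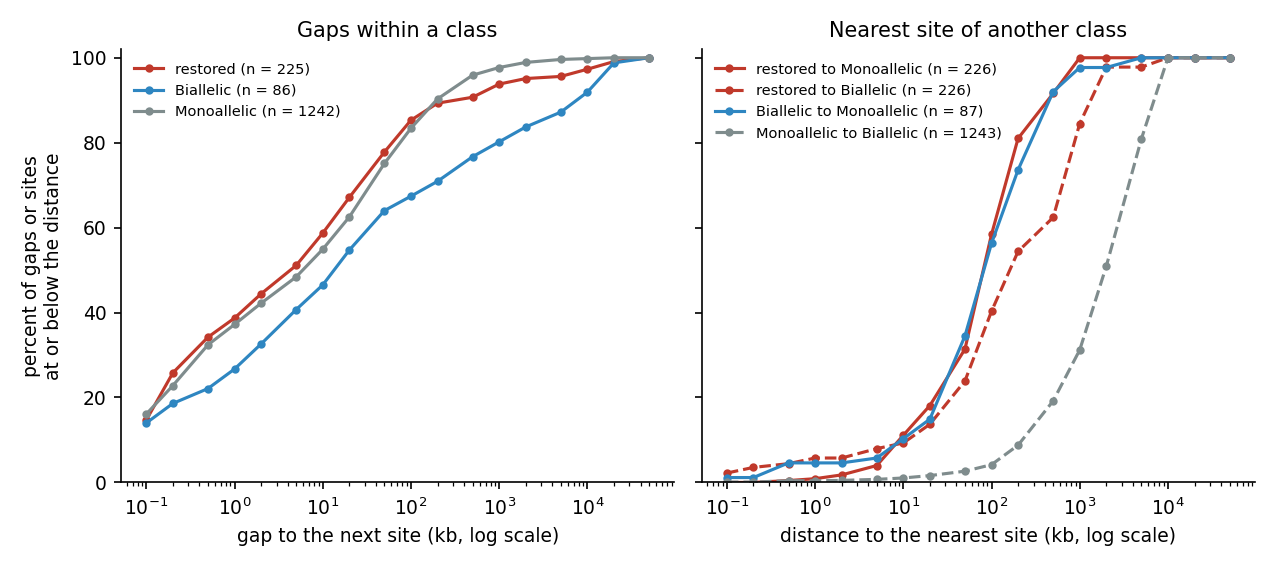
Left, percent of gaps to the next site of the same class at or below a length in kb (log scale); right, percent of sites whose nearest site of another class is at or below a distance in kb (log scale). Restored gaps (red) run close to Monoallelic ones (grey) up to 100 kb, and restored sites have a Biallelic site within 100 kb in 40.3% of cases against 4.18% for Monoallelic sites.

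RNA was not used to choose the sites and was tested for genes that started no more than 10 kb from a restored site. As a check of the labels, Xist had 633 and 429 CPM (counts scaled to library size, with TMM factors) in the 2 WT libraries, 1.08 and 0.273 in those of line 1 and 0.969 and 0.282 in those of line 2. Both lines were far below WT (edgeR quasi-likelihood test, adjusted p = 2.76e-04 for line 1 at a log2 fold change of -9.85, and 0.00179 for line 2 at -9.88). Smarca4 libraries read 600 and 498 CPM (WT), 526 and 418 (line 1) and 559 and 465 (line 2), and neither line passed (adjusted p = 0.526 and 0.914). Of 27 genes for SWI/SNF subunits 23 were tested; 2 were lower in line 1, Smarcd3 (-0.93, adjusted p = 0.0144) and Dpf1 (-1.22, adjusted p = 0.0153), and 0 passed in line 2 (1 at an unadjusted p under 0.05, 0 by DESeq2). The 2 are 8.7% of the 23, beside 14.3% of all genes tested in line 1. Marker sums were scaled to all counts of a library, without TMM factors. Fibroblast markers, 13 of 13 detected, summed to 5100 to 7638 CPM per library. None of the lists for keratinocytes, leukocytes, endothelium, melanocytes and Schwann cells, fat and muscle exceeded 20.4 CPM. Krt1 and Dct had 0 counts. The libraries were 3.81 to 7.07 M counts deep, and the second of each group was the deeper.

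Of the 34 genes near a restored site 22 had enough counts to be tested. In line 1, 3 of the 22 were higher and 0 lower (13.6%), beside 14.3% of all 12910 genes called (6.75% higher, 7.55% lower). Without line 1 replicate 1 the count was 8 (36.4%), with 7 higher and 1 lower, beside 17.6% of all genes. With the replicate number added to the model as a block it was 13 (59.1%), with 11 higher and 2 lower, beside 32.4% of all genes. In the main fit, which has no block, the median log2 fold change of the 22 was 0.33. It was 0.02 over 415 X-linked genes and 0.01 over all genes tested. In line 2, 0 of the 22 passed (3 at an unadjusted p under 0.05, 0 by DESeq2), beside 3.58% of all genes (1.73% higher, 1.85% lower). With the block it was 2 (9.09%), beside 12.1% of all genes. The median of the 22 in the main fit was 0.06, against -0.02 over X-linked genes. Near Monoallelic sites 17 of 238 tested genes were called in line 1 (7.14%), and near Biallelic sites 1 of 15. In bulk RNA, more cells that transcribe a gene and more RNA per cell cannot be told apart.

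The 3 genes were Atp7a, Pgk1 and the ribosomal protein gene Rps4x. Atp7a had 58.4 and 59.8 CPM in the WT libraries, 148 and 161 in those of line 1, and 66.6 and 77.5 in those of line 2. Both line 1 libraries lay above all others (log2 fold change 1.39, SE 0.13, adjusted p = 0.00174), and line 2 was not called (0.29, SE 0.13, adjusted p = 0.394). Pgk1 had 8.59 and 8.96 CPM in the WT libraries, 25.4 and 28.7 in those of line 1, and 13.3 and 12.5 in those of line 2. Its groups did not overlap, and the call held in line 1 (1.62, SE 0.20, adjusted p = 0.00411) and not in line 2 (0.55, SE 0.20, adjusted p = 0.275). Rps4x had 24 and 19.7 CPM in the WT libraries, 34.3 and 40.8 in those of line 1, and 25.7 and 29.6 in those of line 2. Its call (0.79, adjusted p = 0.0471) was lost in 5 of the 8 other fits, whereas those of Atp7a and Pgk1 held in all 8. Processed copies of Pgk1 and Rps4x exist elsewhere in the genome and no source used here says how shared reads were counted, so their levels are uncertain. Neither Atp7a nor Pgk1 is in the deposited allele table, so the X that made the added RNA cannot be stated.

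The 7 genes whose promoter window met a restored site differed among themselves. Atp7a and Pgk1 rose in line 1, and Pin4 had too few counts (8 over all libraries) to be tested. Pbdc1 went from 48 and 41.3 CPM in WT to 71.4 and 60.1 in line 1 and 63 and 51.3 in line 2, Ikbkg from 55.8 and 68.5 to 82.4 and 97.3 and to 74.6 and 85.4. For both, every library of the lines lay above both WT libraries. The share of all genes with such a split in total RNA was not counted. Neither passed the test in line 1 (adjusted p = 0.0939 at a log2 fold change of 0.56, and 0.0876 at 0.53). Vbp1, at 30.1 and 36 CPM in the WT libraries and 35.4 and 58.7 in those of line 1, did not pass (0.52, adjusted p = 0.309). Nor did it in line 2, at 25 and 33 CPM (-0.19, adjusted p = 0.892). With the replicate number as a block, Pbdc1, Ikbkg and Vbp1 were called in line 1, beside 32.4% of all genes. In line 2 the block called Ikbkg, beside 12.1% of all genes. Pls3, with 14 restored sites, had 206 and 233 CPM in the WT libraries, 203 and 246 in those of line 1, and 206 and 207 in those of line 2, a range that overlapped in all groups.

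Of the 5 genes that hosted the most restored sites, Col4a6 alone passed the test for total RNA against WT in the main fit. Msn, with 15 sites, had 479 and 414 CPM in WT and 458 and 395 in line 1 (-0.07, adjusted p = 0.846). Tbl1x, with 9, had 142 and 151 CPM in WT and 142 and 132 in line 1 (-0.09, adjusted p = 0.657). Col4a6, with 8, fell from 222 and 229 CPM in WT to 44.1 and 36.2 in line 1 (log2 fold change -2.50, SE 0.15, adjusted p = 4.46e-04) and to 91.6 and 104 in line 2 (-1.20, SE 0.14, adjusted p = 0.0122). In line 2 that call was lost without any single library of WT or line 2 (adjusted p from 0.0894 to 0.11). Its neighbour Col4a5, with 4 sites, fell in line 1 from 350 and 333 to 175 and 97.7 CPM (-1.33, adjusted p = 0.0222). Mid1, with 8, had 54.3 and 54.9 CPM in WT, 39.7 and 30.2 in line 1 (-0.65, adjusted p = 0.0688) and 75.8 and 63.2 in line 2 (0.34, adjusted p = 0.493). In line 1 it passed in 3 of the 8 other fits run, and the adjusted p ranged from 0.00934 to 0.268. Of the 29 tested genes with a restored site inside, 5 were higher and 3 lower in line 1 (27.6%), beside 14.3% of all genes, and DESeq2 called 5. In line 2, 1 was higher and 1 lower (6.9%), beside 3.58% of all genes. In a test of line 2 minus line 1, 10 of 31 tested genes near or around a restored site differed in total RNA (32.3%), beside 12.6% of all genes.

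Among genes nearest to the large clusters, Atp2b3 was almost silent in WT, with 0.505 and 0.32 CPM, and had 2.16 and 6.28 in line 1 (3.43, SE 0.75, adjusted p = 0.031) and 0.485 and 0.141 in line 2. The line 1 call was lost without either WT library and under DESeq2 (adjusted p = 0.0535). AA414768 rose from 3.28 and 2.88 CPM to 17.3 and 12.1 in line 1 (2.24, SE 0.31, adjusted p = 0.0069). In line 2 it had 5.33 and 6.77 CPM (0.99, adjusted p = 0.22), and its line 1 call was lost without WT replicate 2 (adjusted p = 0.0656). Las1l had 33.3 and 33.3 CPM in the WT libraries, 43.2 and 44.4 in those of line 1, and 42.9 and 40 in those of line 2. It was above WT in every library of the lines and called in neither line (adjusted p = 0.13 and 0.401). With the replicate number as a block in the edgeR fit, Las1l was called in line 1 (adjusted p = 0.0391). Bgn, next to a site of both lists, had 497 and 412 CPM in WT and 513 and 334 in line 1 (adjusted p = 0.849). Mir221 and Mir222 had 8 and 3 counts over all libraries and were not tested.

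A list of 9 genes known to escape silencing constitutively was also compared. Of the 9, 4 started no more than 10 kb from a restored site, Pbdc1, Ftx, Mid1 and 5530601H04Rik, beside 34 of 1058 X-linked symbols (3.21%). Mid1 did not read as an escape gene here: 1.25% and 2.48% of its allele reads in WT came from the mus X, taken as the Xi, and the authors' deposited table classed it as Monoallelic. None of the 9 passed the test in line 1 (4 at an unadjusted p under 0.05, 0 by DESeq2), beside 14.3% of all genes, or in line 2 (1 at an unadjusted p under 0.05, 0 by DESeq2), beside 3.58%. Ftx had 23.2 and 28.6 CPM in the WT libraries, 36.2 and 59.8 in those of line 1, and 27.4 and 23.3 in those of line 2 (line 1 log2 fold change 0.89, adjusted p = 0.0871). With the replicate number as a block, the 4 genes near a restored site were called in line 1, Mid1 as lower, beside 32.4% of all genes. In line 2 the block called 5530601H04Rik among these 4, beside 12.1% of all genes.

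The allele table separates reads of the mus X from those of the cas X. The mus X gave 5.46% to 7.25% of the reads of this table in each library and is taken here as the Xi. Of the 34 genes 11 are in this table of 205 genes, and the authors' deposited table classed all 11 as Monoallelic in every comparison and none of the 205 as restored. edgeR's test on mus against cas reads called 1 of the 11 higher in line 1, Msn, beside 1.46% of the table (3 genes), and 0 in line 2, beside 0% of the table (3 genes at an unadjusted p under 0.05, 2 of them among the 11). Msn had 2 of 406 and 6 of 547 allele reads from the mus X in WT, 13 of 378 and 58 of 669 in line 1, and 4 of 401 and 16 of 576 in line 2. The mus shares were thus 0.493% and 1.1% (WT), 3.44% and 8.67% (line 1), and 0.998% and 2.78% (line 2). Both line 1 shares were above both WT shares, with a log2 change of the mus to cas ratio of 2.93 (adjusted p = 2.72e-06). In line 2, 1 of the 2 shares was within the WT range (1.24, adjusted p = 1). The line 1 call was lost without line 1 replicate 2 (2.05, adjusted p = 0.245) and with the allele values as deposited, unrounded (2.95, adjusted p = 0.234). In the test of line 2 minus line 1, Msn alone of 15 genes near or around a restored site differed in the mus to cas ratio (6.67%), beside 0.976% of the table.

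For Mid1 the higher shares were in line 2. Its mus reads were 1 of 80 and 3 of 121 in WT, 1 of 61 and 1 of 83 in line 1, and 11 of 114 and 15 of 157 in line 2. The line 2 shares of 9.65% and 9.55% lay above all others, at 1.25% and 2.48% in WT, but did not pass the test over the table (2.32, adjusted p = 0.164; unadjusted p = 8.01e-04). Among the 11 genes both line 1 libraries were above both WT libraries in 5 (Bgn, G6pdx, Haus7, Msn and Tbl1x, 45.5%) and below in 0, against 8.29% above and 9.27% below in the whole table. In line 2 it was 4 above (36.4%) and 0 below, against 8.29% and 10.2%. The median mus share of the 11 genes was 1.86% (WT), 4.64% (line 1) and 4.08% (line 2), and over all genes of the table it was 1.1%, 1% and 1.16%. The medians of the 11 fall on a different gene in each group, so their differences are not the change of a typical gene. Taken gene by gene, the median log2 change of the mus to cas ratio was 0.63 in line 1 and 0.27 in line 2. It was above 0 for 8 of the 11 in each line. Over the table the median was -0.05 and -0.07. Apart from Msn none of the 11 genes passed the test in line 1. Bgn, with most mus reads after Flna, had shares of 6.91% and 6.36% (WT), 10.1% and 9.74% (line 1), and 6.98% and 8.8% (line 2). Tbl1x had 0 of 40 and 1 of 59 mus reads in WT and 3 of 44 and 2 of 57 in line 1. Haus7 had 0 of 19 and 2 of 41 in WT and 2 of 19 and 3 of 41 in line 1. G6pdx had 1 of 64 and 3 of 115 in WT and 4 of 75 and 6 of 149 in line 1. The shares of Tbl1x, Haus7 and G6pdx thus rest on few mus reads. Both lines were set against the same 2 WT libraries, so the counts of 5 and 4 genes above WT are not independent.

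**Figure D5:**
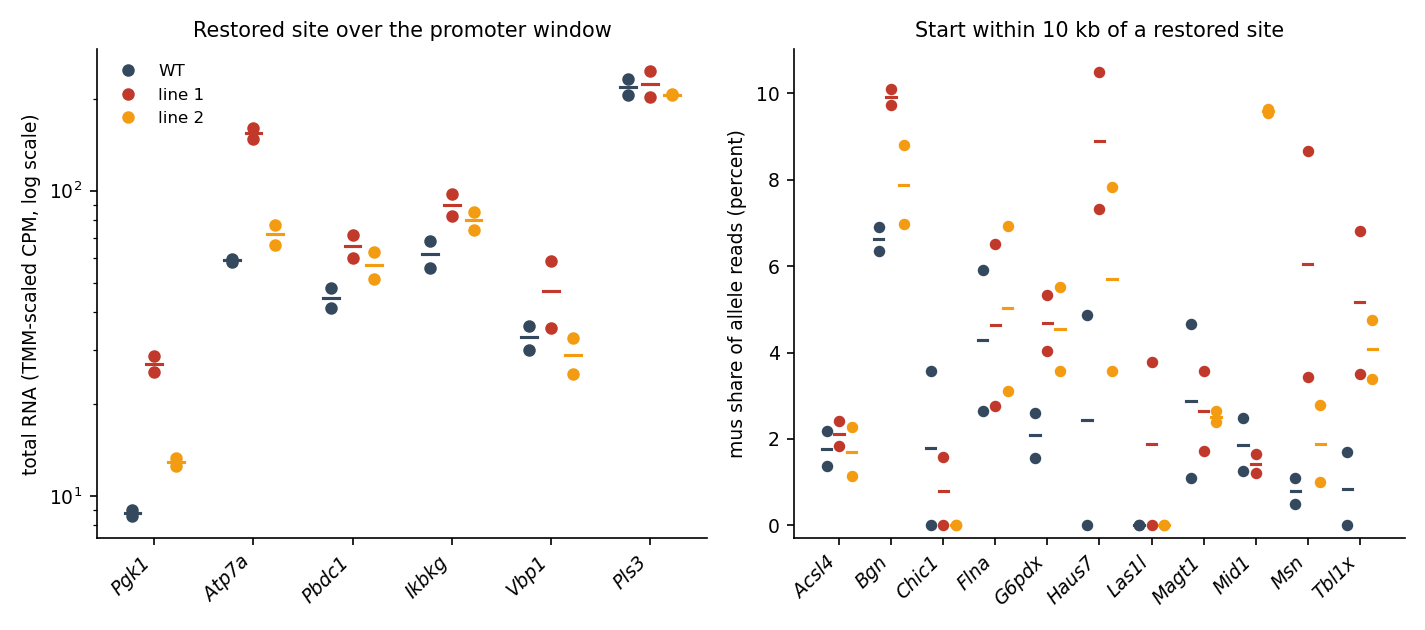
Left, total RNA (TMM-scaled CPM, log scale) of the 6 tested genes whose promoter window met a restored site; right, mus share of allele reads (percent) of the 11 genes near restored sites in the allele table. Points are the 2 libraries of WT (dark), line 1 (red) and line 2 (orange) and bars their means; line 1 stands above the rest for Pgk1, Atp7a and the mus share of Msn, and line 2 for the mus share of Mid1.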

How the data were processed

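The members, gene lists and near-site definitions were chosen with earlier results of these data known. Site lists are the authors' deposited coordinates, read as BED intervals and given 1-based on mm10. Per the submitters' processing notes, Trim Galore 0.4.1, Bowtie2 2.2.7, Novoalign 3.00.02, SAMtools 0.1.18, bedtools 2.25.0, TopHat2, MACS2, HOMER and edgeR were used; no source used here says which step each did. Exon and allele values are expected counts, deposited by the authors without normalization per the file headers. The design assumed counts, so exon values were rounded (0.5 up) and allele values rounded (0.5 down, the deposited 0.5 standing for 0). Of 28972 transcripts the one with the highest total was kept for each of 24470 symbols.

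All 6 RNA libraries entered 1 edgeR 4.0.16 quasi-likelihood fit (R 4.3.3, limma 3.58.1; TMM, filterByExpr, 12910 genes, a mean per group). Allele counts of 205 genes, each with at least 20 reads in every group, were fitted with a term per library. Calls used Benjamini-Hochberg adjusted p under 0.05; DESeq2 1.42.0 was an alternative. Fits were also run on simulated counts of independent libraries. The simulation held no replicate difference shared between groups, so it cannot show how such a difference affects the calls. Distances were computed in Python 3.11.15; 2 short RNAs aligned over more than 1 kb were left out. Intervals and counts cover counting error only.

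Named genes were Xist and Smarca4, genes that start no more than 10 kb from a site of both lists, the start nearest the midpoint of each of the 5 largest clusters, near genes that passed a test (up to 8 per direction and line, mean log2 CPM of at least 3), and the 5 genes with most sites inside. Ranked parts skipped predicted genes and symbols of microRNAs, small nucleolar RNAs and ribosomal proteins. Genes beyond this rule (genes at the promoter windows, Rps4x, Col4a5, Ftx, Smarcd3 and Dpf1, and genes that locate a cluster) were named after their values were seen. Allele-specific signal tracks, samples treated with siRNA and chromatin data of line 2 were not analysed here.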

Additional observations from a re-analysis of the deposited data

Results flagged for a closer look

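Several genes near or around restored sites differed between the 2 Xist-deleted lines in a test of line 2 minus line 1 (edgeR, adjusted p under 0.05 over all genes tested). They were 10 of 31 tested genes near or around a site (32.3%), and AA414768, the gene nearest to a large cluster, beside 12.6% of all genes (1630 of 12910). Line 2 was lower than line 1 for the total RNA of Atp2b3 (log2 difference -3.94, adjusted p = 0.0253), Chic1 (-1.31, adjusted p = 0.0187), Pcdh19 (-1.31), AA414768 (-1.25, adjusted p = 0.0394), Atp7a (-1.10, adjusted p = 0.00386), Pgk1 (-1.07, adjusted p = 0.0167) and Acsl4 (-0.52, adjusted p = 0.034). Line 2 was higher for Col4a6 (1.30, adjusted p = 0.00325), Pcyt1b (1.25), Col4a5 (1.22, adjusted p = 0.0317) and Mid1 (1.00). The mus to cas ratio of Msn was lower in line 2 than in line 1 by a log2 difference of -1.69 (adjusted p = 0.0179 over the allele table), 1 of 15 such genes, beside 2 of the 205 genes of the table (0.976%). Chic1, Acsl4 and Mid1 were not called against WT in either line in the main fit. With the replicate number as a block, all of them were called against WT in line 1. Pcdh19 libraries read 348 and 353 CPM (WT), 760 and 610 (line 1), and 239 and 311 (line 2). Pcyt1b libraries read 56.3 and 53.6 CPM (WT), 38.4 and 38.2 (line 1), and 94.2 and 87.6 (line 2), and the gene was called lower in line 1 (adjusted p = 0.0443) and higher in line 2 (adjusted p = 0.038). Each line is a single line, so effects of the line and of the deletion cannot be told apart.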

How the results depend on the processing

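The count of clusters was 21 with a largest gap of 50 kb and 15 with 200 kb (18 at 100 kb), and sites at starts, distances and clusters stayed within 1.5 times of the values given. The overlap of the lists fell from 22 accessible sites to 4 when 50% of the shorter interval had to be shared. Line 1 calls among near genes (3 of 22 tested) were 6 of 31 without the filter on low counts and 9 of 46 for starts within 50 kb, a set that takes in Xist. With the replicate number as a block they were 13 of 22 (11 higher, 2 lower; 59.1%), beside 32.4% of all genes in that fit. They ranged from 2 to 8 without single libraries, with 8 without line 1 replicate 1. Line 2 calls (0) were 2 with the block (5530601H04Rik and Ikbkg) and 2 at 50 kb (Col4a6 and Xist). The labels give replicates of different groups only a number in common. Over genes, however, the replicate 1 to 2 differences of any 2 groups had a Pearson r of 0.53 to 0.59. Such differences were thus in part shared between groups, and the main fit has no term for them. The block made no difference to the mus share calls. Mus share calls in line 1 (1) were 0 with values as deposited, 0 for starts within 5 kb, 2 within 50 kb (Med14 besides), and 0 to 1 without single libraries. Directions turned in these results of named genes, none of which was called. In line 1 without single libraries the log2 fold change ranged from -0.45 to 0.17 for Bgn, -0.19 to 0.04 for Msn and -0.12 to 0.15 for Pls3, and in line 2 from -1.36 to 0.28 for Atp2b3, -0.21 to 0.12 for Bgn, -0.17 to 0.01 for Pls3 and -0.24 to 0.04 for Smarca4. The mus to cas ratio in line 1 ranged from -0.12 to 3.55 for Las1l and from -0.75 to 0.19 for Mid1, which was at 0.08 with values as deposited. The cause was not tested. The lists carry no depth or score, and the allele table held 13983 to 26645 reads per library, which limits genes with few mus reads.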
